A study of Mus musculus with 15 samples.

Results

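The breakdown of the branched chain amino acids leucine, isoleucine and valine was followed through 9 genes in sorted mouse hepatocytes. The genes were chosen by their role in the pathway and found by symbol among the 55984 symbols of the count table. They were Bcat2 for the opening transamination, Bckdha, Bckdhb, Dbt and Dld for the branched chain ketoacid dehydrogenase, its kinase Bckdk and its phosphatase Ppm1k, and Ivd and Mmut for later steps. All 9 were found, and all 9 were among the 17488 genes that passed the filter on low counts.

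Hepatocytes were taken from the livers of 4 untreated adult male C57BL/6JJcl mice of WT genotype and sorted by the fluorescence of the DNA dye Hoechst. Diploid cells formed the 2n-whole group and tetraploid cells the 4n-whole group, while 4n-bottom and 4n-top were gates on the tetraploid cells enriched for cells with a pair of diploid nuclei and for cells with a single tetraploid nucleus, respectively. Neither gate was pure. By the study's counts under the microscope, 4n-top kept a larger share of binucleated cells than 4n-bottom kept of mononucleated cells. Each group held 4 libraries, 1 from each of the 4 mice, apart from 4n-top, which held 3 libraries from mice 2, 3 and 4. Libraries were made from 20 ng of total RNA, so values were shares of a library and not amounts per cell.

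Muscle and other tissues outside the liver are known for the transamination step, in which BCAT2 moves the amino group to a keto acid in mitochondria, whereas the liver is known for a strong branched chain ketoacid dehydrogenase. This mitochondrial complex removes carbon dioxide from the keto acids and commits them to breakdown. BCKDK phosphorylates and switches off the complex, and PPM1K removes the phosphate and switches it on. Leucine carbon then passes through the dehydrogenase encoded by Ivd, and valine and isoleucine carbon reaches the citric acid cycle through the methylmalonyl-CoA mutase encoded by Mmut.

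Total counts per library ran from 22049498 to 42096421. The 6 hepatocyte markers summed to between 66903 and 94094 CPM (counts scaled to library size, adjusted by the trimmed mean of M values), and all 6 were detected. The summed markers of endothelial cells reached at most 29.8 CPM, those of cholangiocytes 47.4 CPM, those of Kupffer cells 6.67 CPM, those of stellate cells 5.01 CPM and those of other leukocytes 1.15 CPM. The 4n-whole library of mouse 2 had the lowest total count and the lowest share of counts from the mitochondrial genome, 8.84%, against 11.0% to 18.5% in the other 3 4n-whole libraries and 20.5% to 26.2% in 2n-whole. It was the lowest of the 15 libraries for 6 of the 9 genes, Bckdha, Dbt, Dld, Bckdk, Ppm1k and Mmut. Results that rest on this library are given with and without it.

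The messages of the 9 genes differed widely in abundance when counts were divided by the length of the canonical transcript. Ivd had the highest level, 44.9 ± 2.38 CPM per kb (SD over 15 libraries), followed by Mmut at 38.3 ± 5.80, Dbt at 31.8 ± 4.51 and Dld at 25.9 ± 4.40 CPM per kb. Ppm1k stood at 18.6 ± 3.35, Bckdha at 16.5 ± 2.34 and Bckdhb at 14.1 ± 1.71 CPM per kb, and the 2 lowest were Bcat2 at 7.79 ± 2.07 and Bckdk at 1.70 ± 0.378 CPM per kb. The ranges over libraries overlapped between every pair of neighbours in this order except Bcat2 and Bckdk, whose ranges were 4.71 to 12.5 and 1.12 to 2.54 CPM per kb. Mmut lay above Dbt, and Dbt above Dld, in 15 of 15 libraries, while Ivd lay above Mmut in 12 of 15. With the length of all exons joined in place of the canonical transcript, Dbt moved to the head of the order and the other genes kept theirs.

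**Figure D1:**
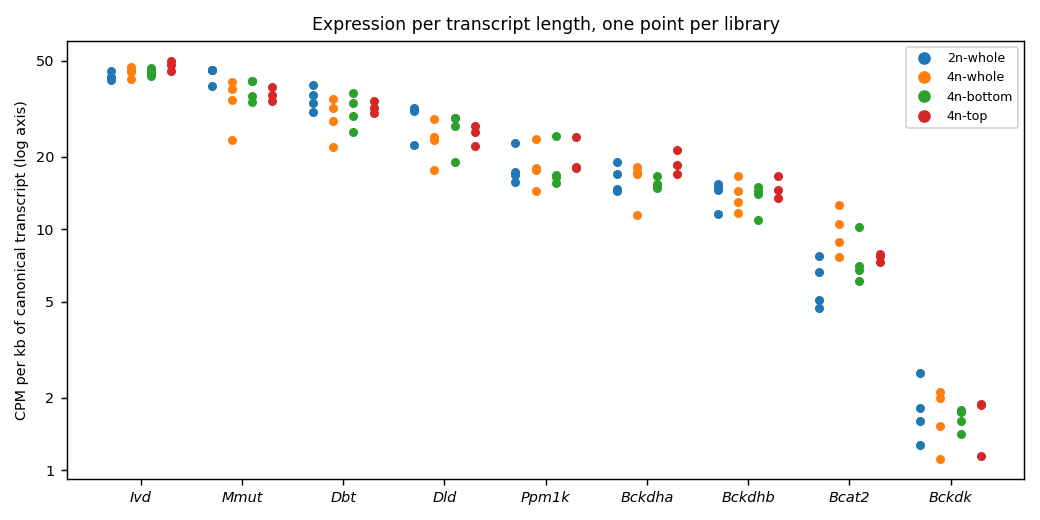
Level of each gene as CPM per kb of canonical transcript on a log axis, with 1 point per library coloured by group. Ivd is highest, and Bckdk lies below Bcat2 in all 15 libraries.

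BCAT2 opens the pathway, and its gene gave the largest difference between 4n-whole and 2n-whole among the 9. Bcat2 (chr7:45219577-45239152, plus strand, GRCm39) was at 8.43, 9.08, 13.8 and 11.9 CPM in the 2n-whole libraries of mice 1 to 4 and at 15.8, 22.4, 18.9 and 13.8 CPM in the 4n-whole libraries of the same mice. The lowest 4n-whole library fell just under the highest 2n-whole library, so the groups overlapped at that point. The 4n-whole level was higher within 4 of 4 mice, by 0.21 to 1.30 on the log2 scale, with the smallest difference in mouse 4 and the largest in mouse 2. Bcat2 rose 1.64-fold (log2 fold change 0.72, SE 0.16, 95% interval 0.38 to 1.05, adjusted p = 0.00851 by the quasi-likelihood test of edgeR with mouse as a block). It was 1 of 9 genes higher in this comparison, against 2.93% of all tested genes.

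Both gates on tetraploid cells held mean levels of Bcat2 between those of 2n-whole and 4n-whole. The means were 10.8 CPM in 2n-whole, 13.4 CPM in 4n-bottom, 13.7 CPM in 4n-top and 17.7 CPM in 4n-whole. The gates divide the tetraploid cells that 4n-whole takes together, yet the 4n-whole mean lay above both gate means. The cause of this was not tested. The 4n-bottom libraries of mice 1 to 4 were at 12.1, 12.6, 18.2 and 10.9 CPM, and the 4n-top libraries of mice 2 to 4 were at 13.9, 14.1 and 13.1 CPM. Both ranges overlapped with 2n-whole, and the fitted log2 differences from 2n-whole were 0.31 (SE 0.16, adjusted p = 0.535) for 4n-bottom and 0.29 (SE 0.18, adjusted p = 0.578) for 4n-top in edgeR. The 3 comparisons share the 2n-whole libraries. Between 4n-top and 4n-bottom the log2 difference was -0.017, with a 95% interval from -0.38 to 0.35.

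The Bcat2 call rested on the 4n-whole library of mouse 2, where the gene was highest. Without that library the log2 fold change was 0.56 and the edgeR adjusted p was 0.0563, and without mouse 2 in any group these were 0.51 and 0.123. Without the mouse block the adjusted p was 0.163 at nearly the same log2 fold change, 0.71. Bcat2 shares 708 exon bases, 16% of its exons, with 0610005C13Rik on the opposite strand, and the strand setting of the counting was not given, so reads of this stretch are uncertain. That gene stood at 71.8 ± 7.30 CPM in 4n-whole and 67.2 ± 7.82 CPM in 2n-whole (SD, n = 4 each), with a log2 difference of 0.097 (SE 0.091, edgeR adjusted p = 0.618).

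RefSeq lists 2 start sites for Bcat2, and the gene counts pool both. The 250 bases before each start are shown because Bcat2 carried the largest change, and because KLF15, a zinc finger factor known to drive Bcat2 in muscle and heart, binds letters of the kind CACCC. Capitals mark CACCC or its complement GGGTG, searched on both strands. The first window lies at chr7:45569903-45570152 and the second at chr7:45571029-45571278, both on the plus strand of GRCm38.p6, the build of the RefSeq table.
Bcat2 start 1: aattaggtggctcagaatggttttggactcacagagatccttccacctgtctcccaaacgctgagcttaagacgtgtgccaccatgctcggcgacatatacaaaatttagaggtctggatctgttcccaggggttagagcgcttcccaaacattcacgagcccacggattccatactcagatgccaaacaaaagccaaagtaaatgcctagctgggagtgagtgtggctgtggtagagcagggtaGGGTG
Bcat2 start 2: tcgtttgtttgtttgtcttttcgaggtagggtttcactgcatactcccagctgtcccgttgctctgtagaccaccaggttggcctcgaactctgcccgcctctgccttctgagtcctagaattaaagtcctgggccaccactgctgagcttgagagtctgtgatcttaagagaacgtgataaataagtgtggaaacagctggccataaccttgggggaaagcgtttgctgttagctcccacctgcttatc
The first window held 1 match, at its end beside the start site, and the second held 0. Of 32851 such windows in the table, 52% held at least 1 match, so a match describes the letters only.

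**Figure D2:**
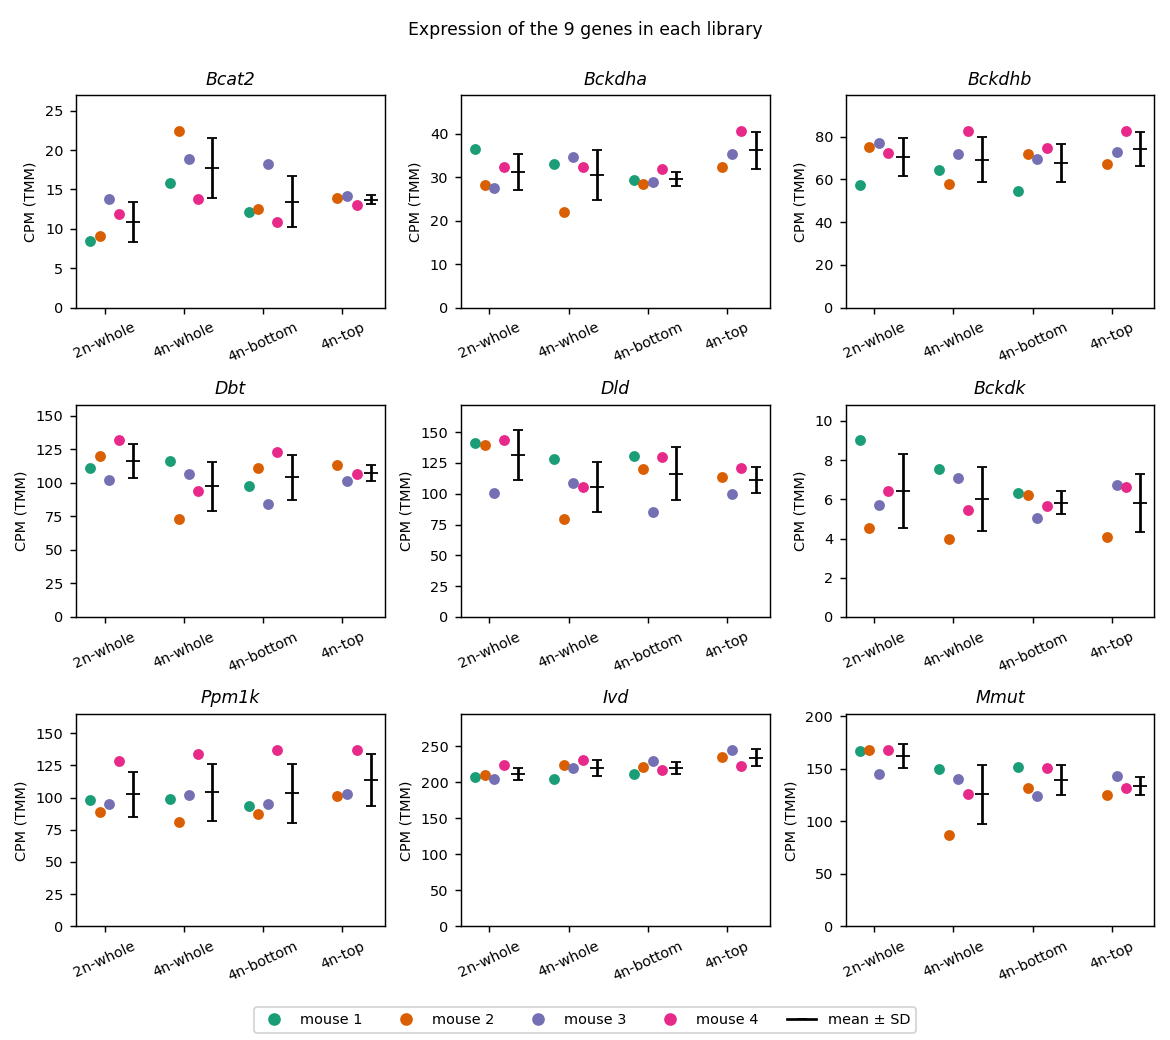
CPM of each of the 9 genes in every library, with points coloured by mouse and the mean ± SD of each group beside them; each vertical axis starts at 0. Bcat2 is higher in 4n-whole than in 2n-whole in 4 of 4 mice, Ppm1k is highest in mouse 4 in all 4 groups, and the 4n-whole library of mouse 2 is the lowest point for Bckdha, Dbt, Dld, Bckdk, Ppm1k and Mmut.

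The 4 genes of the dehydrogenase complex gave no call between 4n-whole and 2n-whole. Bckdha and Bckdhb encode the chains of the decarboxylase that acts first. Bckdha (chr7:25326168-25358420, minus strand) was at 36.5, 28.1, 27.6 and 32.4 CPM in 2n-whole and at 33.1, 21.9, 34.6 and 32.4 CPM in 4n-whole of mice 1 to 4, a log2 difference of -0.036 (95% interval -0.28 to 0.20). Bckdhb (chr9:83807130-84011081, plus strand) was at 57.3, 75.1, 77.0 and 72.6 CPM in 2n-whole and at 64.6, 58.0, 72.0 and 82.5 CPM in 4n-whole, a log2 difference of -0.024 (95% interval -0.23 to 0.18). Both groups overlapped for both genes, and neither interval excludes a small change in either direction.

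Dbt and Dld encode the core acyltransferase and the dihydrolipoamide dehydrogenase of the complex, the latter shared with pyruvate dehydrogenase, oxoglutarate dehydrogenase and the glycine cleavage system. Dbt (chr3:116306686-116343633, plus strand) had 111, 120, 102 and 132 CPM in 2n-whole and 116, 72.8, 106 and 94.0 CPM in 4n-whole. Dld (chr12:31379323-31401452, minus strand) had 141, 139, 101 and 143 CPM in 2n-whole and 128, 79.1, 109 and 105 CPM in 4n-whole. The 4n-whole library of mouse 2 was the lowest of all 15 for both genes, and each gene was higher in 4n-whole in at least 1 mouse. The log2 differences were -0.25 for Dbt (SE 0.12, adjusted p = 0.235) and -0.31 for Dld (SE 0.11, adjusted p = 0.111) in edgeR, so neither passed. Without the 4n-whole library of mouse 2 the Dbt value was -0.10 (adjusted p = 0.725), and without mouse 2 in any group it was -0.12 (adjusted p = 0.725). Without the same library the Dld value was -0.17 (adjusted p = 0.457), and without mouse 3, whose 2n-whole library was low, it was -0.46 and passed (adjusted p = 0.0104).

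No difference was detected for the kinase and the phosphatase of the complex between 4n-whole and 2n-whole. Bckdk (chr7:127502939-127510162, plus strand) was the least abundant of the 9 genes, with 9.02, 4.53, 5.70 and 6.44 CPM in 2n-whole and 7.54, 3.97, 7.09 and 5.44 CPM in 4n-whole, and its log2 difference was -0.089 with a wide 95% interval, -0.52 to 0.34. Ppm1k (chr6:57483475-57512492, minus strand) had 98.1, 88.6, 95.3 and 128 CPM in 2n-whole and 99.0, 81.3, 102 and 134 CPM in 4n-whole, with a log2 difference of 0.014 and an interval from -0.16 to 0.19. For Ppm1k, mouse 4 was the highest and mouse 2 the lowest library in 4 of 4 groups. In 4n-bottom the levels were 93.5, 87.5, 94.8 and 137 CPM, and in 4n-top they were 102, 103 and 137 CPM in mice 2 to 4.

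On the scale of CPM per kb, the ratio of the phosphatase Ppm1k to the kinase Bckdk ran from 6.84 to 12.6 in 2n-whole, 8.26 to 15.5 in 4n-whole, 8.83 to 15.2 in 4n-bottom and 9.60 to 15.6 in 4n-top. These ranges overlapped in every pair of groups. The ratio of Bckdhb to Bckdha had medians of 0.943 in 2n-whole and 0.889 in 4n-whole, and of 0.913 in 4n-bottom and 0.788 in 4n-top, and that of Dbt to Bckdha had medians of 2.23, 1.83, 2.06 and 1.64 in the same order. All of these ratios are descriptions and were not tested. Their size depends on the length used. The canonical transcript and all exons joined are 1913 and 4033 bases for Bckdha, 4977 and 15223 for Bckdhb and 3337 and 3510 for Dbt. The Bckdha count is also uncertain, since 59.2% of its exon bases overlap with B3gnt8 on the opposite strand.

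Mmut was the other gene that passed between 4n-whole and 2n-whole, in the opposite direction to Bcat2. Mmut (chr17:41245567-41274873, plus strand) was at 168, 168, 145 and 168 CPM in 2n-whole and at 149, 86.7, 141 and 126 CPM in 4n-whole of mice 1 to 4. It was lower in 4n-whole within 4 of 4 mice, by as little as 0.043 on the log2 scale in mouse 3 and by as much as 0.96 in mouse 2, and the groups overlapped in the 2n-whole library of mouse 3. The log2 fold change was -0.39 (SE 0.11, 95% interval -0.61 to -0.16, adjusted p = 0.0379 in edgeR), a fall to 0.766 of the 2n-whole level. Mmut was the 1 of 9 genes called lower, against 2.54% of all tested genes.

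In the tetraploid gates Mmut was at 152, 132, 124 and 151 CPM (4n-bottom) and at 126, 143 and 132 CPM (4n-top). The gate means were 140 and 134 CPM, and the 4n-whole mean, 126 CPM, lay below both, though the gates divide the tetraploid cells. That mean includes the 4n-whole library of mouse 2, at 86.7 CPM. The median of 4n-whole was 133 CPM, between the medians of 4n-bottom, 141 CPM, and 4n-top, 132 CPM. The cause of the low mean was not tested. The levels in 4n-bottom and 4n-top were under those of 2n-whole within 4 of 4 and 3 of 3 mice, and the 4n-top libraries did not overlap with 2n-whole. How many of all tested genes separate likewise was not counted. The log2 differences from 2n-whole were -0.22 (SE 0.11, adjusted p = 0.499) for 4n-bottom and -0.23 (SE 0.12, adjusted p = 0.482) for 4n-top in edgeR, so neither passed. The Mmut call between 4n-whole and 2n-whole was lost without the 4n-whole library of mouse 2 (log2 fold change -0.24, adjusted p = 0.199), without mouse 2 in any group (-0.21, adjusted p = 0.377), without mouse 4 (-0.38, adjusted p = 0.200) and without the mouse block (-0.37, adjusted p = 0.339), all in edgeR. Cenpq, on the opposite strand, covers 374 exon bases or 6.8% of the Mmut exons and was at 2.64 ± 1.09 CPM in 4n-whole and 2.66 ± 1.55 CPM in 2n-whole (SD, n = 4 each).

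Ivd encodes the dehydrogenase that takes leucine carbon onward from the complex. Ivd (chr2:118692141-118714335, plus strand) was at 207, 210, 205 and 223 CPM in 2n-whole, 205, 224, 220 and 231 CPM in 4n-whole, 211, 221, 229 and 217 CPM in the 4n-bottom libraries, and 235, 245 and 222 CPM in 4n-top. The log2 difference between 4n-whole and 2n-whole was 0.058 (SE 0.081, 95% interval -0.11 to 0.22).

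Across the 9 genes, the median log2 difference between 4n-whole and 2n-whole was -0.036, beside -0.0070 over all tested genes, with 3 genes above 0 and 6 below. At an unadjusted p under 0.05 there were 4 of 9 genes, 1 higher and 3 lower, against 20.4% of all tested genes. With the further limit on fold size that the study used, an absolute log2 fold change above 0.5, Bcat2 alone was called, against 3.47% of all tested genes. DESeq2 with the mouse block also called 2 of the 9, against 9.69% of the same 17488 genes. Its p-values were adjusted over the genes with counts in its own fit, so its cutoff was not that of edgeR.

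**Figure D3:**
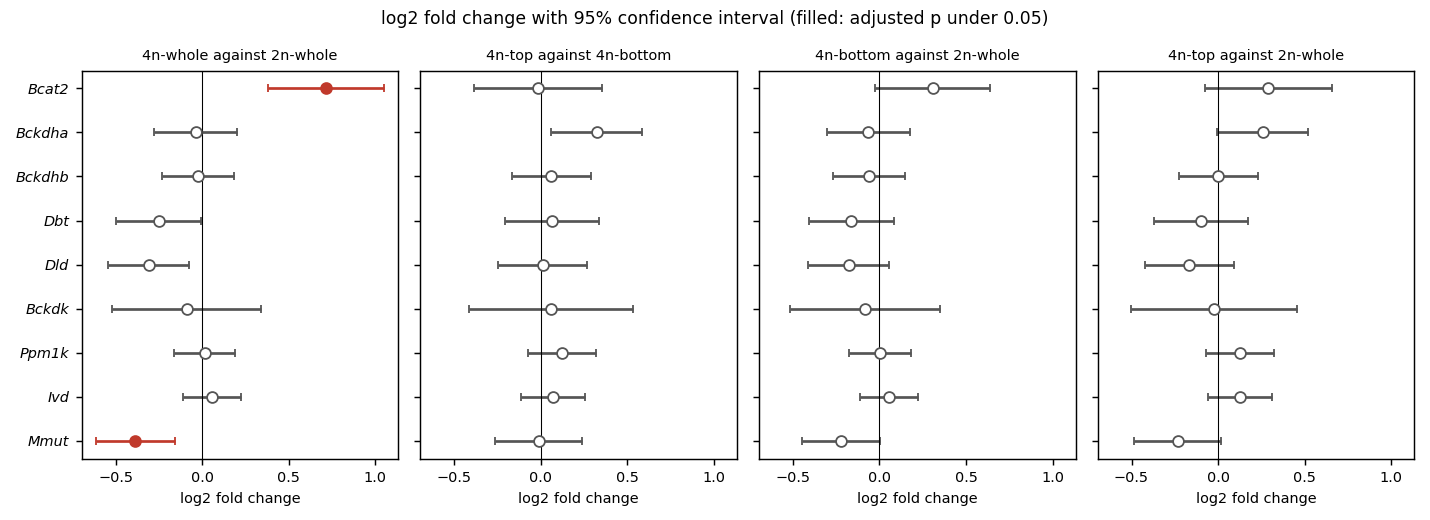
Log2 fold change of each gene in the 4 comparisons, with bars for the 95% confidence interval of the edgeR fit; filled points passed at an adjusted p under 0.05. Only Bcat2 and Mmut between 4n-whole and 2n-whole are filled, and the Bckdha interval between 4n-top and 4n-bottom runs from 0.060 to 0.58.

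**Figure D4:**
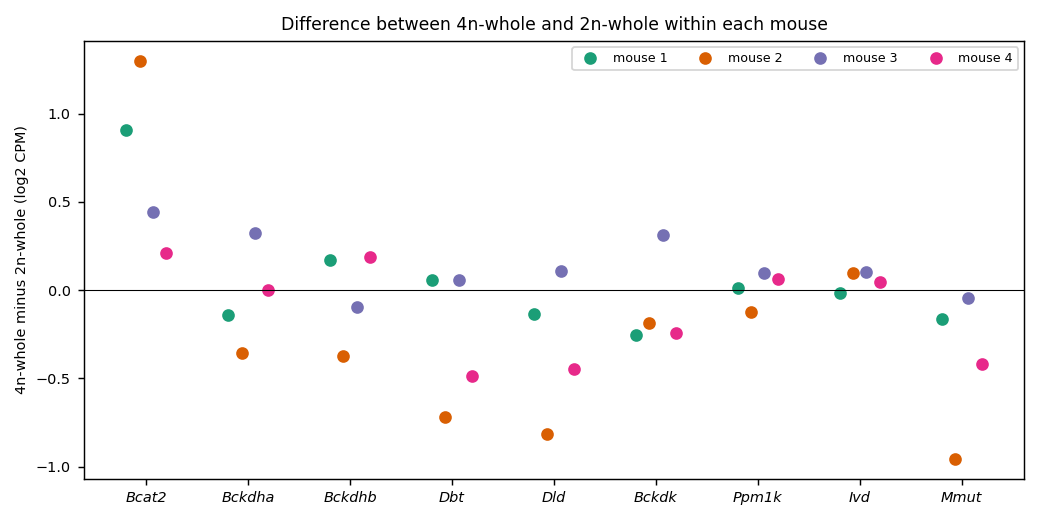
Difference in log2 CPM between the 4n-whole and the 2n-whole library of the same mouse, with 1 point per mouse. The points of mouse 2 are the highest for Bcat2, at 1.30, and the lowest for Mmut, at -0.96.

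Several other measures moved with the sorted groups beside these calls. Markers of hepatocytes around the central vein passed as higher in 4n-whole for 9 of 10 genes, all 10 lay above 0, and they had a summed level of 929 to 3190 CPM against 598 to 895 CPM in 2n-whole, and the list's median log2 difference was 1.59. Among landmarks of the liver lobule, Glul differed by 1.30 and Cyp2e1 by 1.71 on the log2 scale (pericentral), and Cyp2f2 by -0.73 and Ass1 by -0.24 (periportal). The 4n-whole library of mouse 2, in which Bcat2 was highest and Mmut lowest, had the lowest pericentral sum of the 4n-whole libraries, 929 CPM. Markers of periportal hepatocytes passed as lower for 4 of 10 genes and lay below 0 for 8 of 10, with sums of 16661 to 21611 CPM in 4n-whole against 19406 to 23838 CPM in 2n-whole. The cholangiocyte markers summed to at most 31.2 CPM in 4n-whole and at least 34.6 CPM in 2n-whole, and of these 5 markers Krt7 and Epcam were at 0 in most libraries. Sox9 carried most of these sums, with means of 30.8 CPM in 2n-whole and 20.4 CPM in 4n-whole. Spp1 followed, with means of 9.61 and 1.35 CPM. The endothelial sum was 3.32 to 29.8 CPM in 4n-whole and 15.5 to 25.4 CPM in 2n-whole. Of 10 genes that mark RNA quality and cell dissociation, 2 passed as higher in 4n-whole, Malat1 (log2 fold change 0.42) and Jun (0.41), and 3 passed as lower, mt-Co1 (-1.24), mt-Nd1 (-1.40) and mt-Cytb (-1.24). Malat1, a long noncoding RNA of the nucleus, was at 8854 CPM in the 4n-whole library of mouse 2, the highest of the 15 libraries, and at 5493 to 6569.5 CPM in the other 4n-whole libraries. The part of these measures and of the mitochondrial share in the values of Bcat2 and Mmut was not tested. In bulk RNA, fewer cells with a message and less message per cell cannot be told apart.

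The gates 4n-top and 4n-bottom, enriched for tetraploid cells with a single nucleus and with a pair of nuclei, were set against each other. The study holds that the incomplete purity of 4n-top likely weakened the differences seen. The values therefore compare mixed gates and not pure kinds of cell. None of the 9 genes passed in edgeR, against 0.0114% of all tested genes, and DESeq2 with the mouse block also called 0, against 0.743%. At an unadjusted p under 0.05 there was 1 of 9 genes, Bckdha, against 2.79% of all tested genes. Of the 9 genes, 7 lay above 0 and 2 below, beside 8776 and 8712 of all tested genes, and this was not tested here. Bckdha was at 29.4, 28.4, 28.8 and 31.9 CPM in 4n-bottom of mice 1 to 4 and at 32.4, 35.5 and 40.7 CPM in 4n-top of mice 2 to 4. The groups did not overlap, and the 4n-top level was higher within 3 of 3 mice, by 0.19 to 0.35 on the log2 scale. Bckdha had the smallest p of the 9, and how many of all tested genes separate likewise was not counted. The edgeR log2 difference was 0.32 (SE 0.13, 95% interval 0.060 to 0.58, adjusted p = 1).

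Bckdha overlaps with B3gnt8 on the opposite strand over 2386 exon bases, 59.2% of its exons, so part of its count is uncertain. B3gnt8 was at 1.49 ± 0.703 CPM in 4n-top (SD, n = 3) and 2.28 ± 0.363 CPM in 4n-bottom (SD, n = 4). The pericentral markers summed to 950 to 3413 CPM in 4n-top and 916 to 2247 CPM in 4n-bottom, and among the landmarks Glul differed by -0.90 and Cyp2e1 by 0.72 on the log2 scale; their part in the Bckdha values was not tested. The other 8 genes had log2 differences between -0.017 and 0.12, and the partner of Bckdha in the decarboxylase, Bckdhb, was at 54.6, 72.0, 69.4 and 74.7 CPM in the 4n-bottom libraries and 67.1, 72.7 and 82.8 CPM in 4n-top. Dbt was at 98.0, 111, 84.2 and 123 CPM in the 4n-bottom libraries and 113, 102 and 106 CPM in 4n-top, and Dld was at 130, 120, 85.3 and 129 CPM and at 114, 99.8 and 121 CPM. Bckdk was at 6.34, 6.24, 5.05 and 5.67 CPM in the 4n-bottom libraries and 4.09, 6.72 and 6.62 CPM in 4n-top. All of these ranges overlapped.

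Against 2n-whole, neither gate on tetraploid cells gave a call among the 9 genes. In 4n-bottom 0 of 9 passed in edgeR, beside 0.492% of all tested genes, and 0 of 9 had an unadjusted p under 0.05, beside 10.2% of all tested genes. In 4n-top 0 of 9 passed, beside 1.06% of all tested genes, and 0 of 9 had an unadjusted p under 0.05, beside 11.3% of all tested genes. DESeq2 with the mouse block called 0 in both, beside 2.74% of all tested genes for 4n-bottom and 4.33% for 4n-top. The Bckdha difference between 4n-top and 2n-whole was 0.26 on the log2 scale (SE 0.13, adjusted p = 0.461), higher within 3 of 3 mice. Dbt and Dld were lower than in 2n-whole within 4 of 4 mice in 4n-bottom and within 3 of 3 mice in 4n-top, with log2 differences of -0.16 and -0.098 for Dbt and -0.18 and -0.17 for Dld that did not pass. Both gates were read against the same 2n-whole libraries, and the share of all tested genes with such directions was not counted.

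The remaining pathway was followed through 27 further genes, of which 25 were tested. Slc7a8, a plasma membrane carrier, and Bcat1, the cytosolic transaminase, had at most 14 and 32 counts in any library and were not tested. Between 4n-whole and 2n-whole 0 of the 25 passed in edgeR. Leaving out mouse 3 brought a call for Acadsb (log2 fold change -0.54, adjusted p = 0.00483), leaving out mouse 2 brought one for Hsd17b10 (0.40, adjusted p = 0.0466), and 1 of the 25 passed without the 4n-whole library of mouse 2.

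At an unadjusted p under 0.05 there were 4 higher and 4 lower genes among the 25, against 20.4% of all tested genes. In the leucine branch Mccc1, a chain of methylcrotonyl-CoA carboxylase, differed by 0.26 (adjusted p = 0.127 in edgeR) and the hydratase Auh by 0.25 (adjusted p = 0.212), and Mccc2, the other chain of the carboxylase, by -0.0033. In the isoleucine branch the dehydrogenase Acadsb differed by -0.38 (adjusted p = 0.0788), Hsd17b10 by 0.24 and the thiolase Acat1 by 0.12. In the valine branch Acad8 differed by 0.25, Agxt2 by 0.22 and Aldh6a1 by -0.22, with adjusted p of 0.173, 0.202 and 0.205. Upstream of Mmut, the propionyl-CoA carboxylase chains Pcca and Pccb differed by -0.26 (adjusted p = 0.104) and 0.061, and Mmab, which makes the cobalamin cofactor of the mutase, by 0.24. The carriers Slc43a2, Slc43a1 and Slc25a44, the last of which is known for taking branched chain amino acids into mitochondria, differed by -0.95, -0.44 and -0.12, and 0 of the 5 tested carriers passed in edgeR, had an unadjusted p under 0.05 or passed in DESeq2 with the mouse block.

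Between 4n-top and 4n-bottom 0 of the 25 further genes passed in edgeR and 0 had an unadjusted p under 0.05. Their median log2 difference was 0.038, beside 0.0010 over all tested genes. Of the 25, 20 lay above 0 and 5 below, beside 8776 above and 8712 below among all tested genes. In the isoleucine branch 5 of 5 genes and in the valine branch 6 of 6 lay above 0. This lean toward 4n-top was not tested here. By a test on gene sets, the study reports branched chain amino acid breakdown as enriched in the gate richer in mononucleated cells. That test was not repeated here, and its gene set was not compared with the genes listed here. The smallest p in each branch belonged to Slc3a2 (0.21), Auh (-0.079), Hsd17b10 (0.20), Agxt2 (0.12) and Mmaa (-0.27), with the log2 difference in brackets. In 4n-bottom and in 4n-top against 2n-whole 0 of the 25 passed in edgeR, with 3 and 2 at an unadjusted p under 0.05, against 10.2% and 11.3% of all tested genes. DESeq2 with the mouse block called 3 of the 25 between 4n-whole and 2n-whole, against 9.69% of all tested genes, and 0 in the other comparisons.

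**Figure D5:**
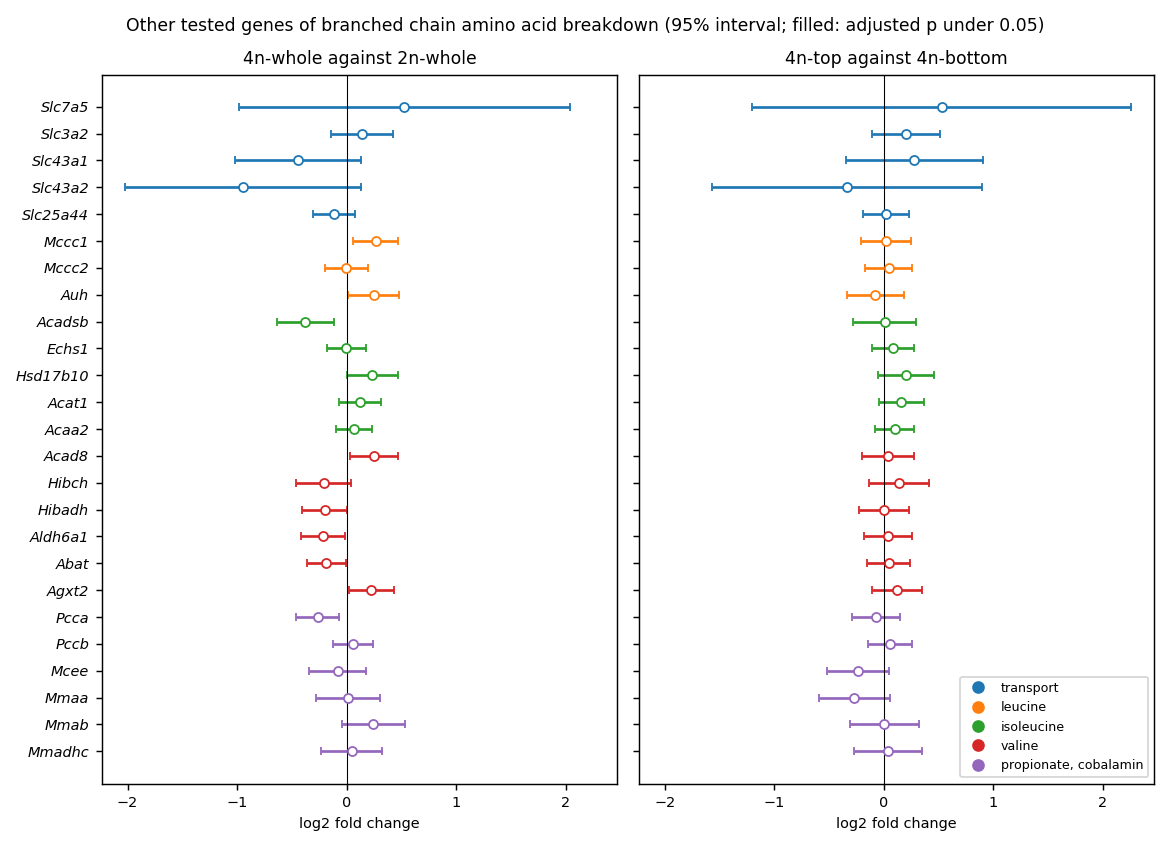
Log2 fold change of the 25 further tested pathway genes between 4n-whole and 2n-whole (left) and between 4n-top and 4n-bottom (right), coloured by branch, with bars for the 95% confidence interval of the edgeR fit. Open points did not pass at an adjusted p under 0.05, and all 25 points are open in both panels, with Acadsb at -0.38 in the left panel.

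The partners with which Dld works in other complexes were read beside it. Among 10 genes of the pyruvate, oxoglutarate and oxoadipate dehydrogenases and the glycine cleavage system, 0 passed between 4n-whole and 2n-whole in edgeR, with 1 higher and 3 lower at an unadjusted p under 0.05 (20.4% of all tested genes) and 3 called by DESeq2 with the mouse block (9.69%). The log2 differences were 0.36 for Amt (adjusted p = 0.0598) and -0.24 for Gldc (adjusted p = 0.114), both of glycine cleavage, and -0.21 for Ogdh (adjusted p = 0.150). The median of the 10 was -0.037. Of the kinases and phosphatases that control pyruvate dehydrogenase, as Bckdk and Ppm1k do for the branched chain complex, 1 of 6 tested passed as higher, against 2.93% of all tested genes, and Pdk3 was not tested. Pdk4 was at 7.89, 8.57, 6.09 and 10.1 CPM in 2n-whole and 12.9, 13.2, 12.5 and 18.0 CPM in 4n-whole of mice 1 to 4. These groups did not overlap, though the share of all tested genes without overlap was not counted. The Pdk4 log2 fold change was 0.79 (SE 0.18, adjusted p = 0.00928 in edgeR), and the call was lost without the mouse block (adjusted p = 0.300) and without mouse 4 (0.0730). Pdp2 differed by 0.24 (adjusted p = 0.136) and Pdk2 by -0.21 (adjusted p = 0.222). Between 4n-top and 4n-bottom 0 of the 10 complex genes and 0 of the 6 passed in edgeR or DESeq2 or had an unadjusted p under 0.05, with Gldc at -0.16 and Pdk4 at 0.27.

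Among 4 transcription regulators known to act on this pathway or on hepatic fuel use, 2 passed between 4n-whole and 2n-whole, 1 higher and 1 lower, against 2.93% and 2.54% of all tested genes. Mlxipl, the carbohydrate response factor, is known for raising Bckdk and lowering Ppm1k in liver. It was at 332, 411, 307 and 352 CPM in 2n-whole and 501, 789, 361 and 557 CPM in 4n-whole of mice 1 to 4, higher within 4 of 4 mice, with a log2 fold change of 0.62 (SE 0.11, adjusted p = 8.16e-04 in edgeR). Ppargc1a, a coactivator of mitochondrial genes, was at 20.4, 13.2, 28.8 and 31.4 CPM in 2n-whole and 11.7, 10.5, 21.3 and 18.6 CPM in 4n-whole, lower within 4 of 4 mice, with a log2 fold change of -0.59 (SE 0.13, adjusted p = 0.00682 in edgeR). Without the mouse block neither passed (adjusted p = 0.194 for Mlxipl and 0.449 for Ppargc1a), and without mouse 4 Ppargc1a did not (0.144). Klf15 differed by 0.29 (adjusted p = 0.0803) and Ppara by 0.30 (adjusted p = 0.0584). Between 4n-top and 4n-bottom 0 of the 4 passed in edgeR or DESeq2, and Ppargc1a, the 1 gene with an unadjusted p under 0.05, differed by -0.36 (adjusted p = 1 in edgeR).

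The genes whose pattern over the 15 libraries lay nearest to that of Bcat2 were found by the root mean square difference of centred log2 CPM. These were 1810019D21Rik, at 0.103, Gm56542 at 0.121, Sugp2 at 0.129, Slc12a7 at 0.142 and Slc15a4 at 0.144, where Bcat2 itself varied by 0.318 about its mean. For Bckdha, which varied by 0.166, they were Mfsd4b1 at 0.0629, Cops6 at 0.0796, Ktn1 at 0.0804, Lactb at 0.0808 and Cpsf3 at 0.0815. The nearest genes were picked for their pattern among all tested genes, so a call for any of them adds no evidence on Bcat2 or Bckdha.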

How the data were processed

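The data were RNA-seq libraries of sorted hepatocytes. The authors deposited raw read counts per gene symbol, without normalization, from STAR 2.7.11a and featureCounts of Subread on GRCm39, as the submitters' processing notes name them. The annotation, the strand setting and the handling of read pairs are not given in the sources used here. Between 74.2% and 81.4% of counts from 1 to 10 in a library were even numbers. The study left out the 4n-top library of mouse 1 for poor RNA quality. Total counts were 22049498 to 42096421, so that 3 counts, a floor for counting error only, stood at 0.0693 to 0.120 CPM.

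Counts were tested with edgeR 4.0.16 in R 4.3.3 (TMM scaling, filterByExpr with a minimum count of 10, quasi-likelihood test, two-sided) with group and mouse as terms over all 15 libraries. P-values of edgeR were adjusted over 17488 genes by the Benjamini-Hochberg method and passed under 0.05. Those of DESeq2 were adjusted over the genes with counts in its own fit. Its shares were then counted among the 17488 genes, without a new adjustment. The groups share libraries between comparisons. Overlap of groups and direction within mice were read for the listed genes only, with no share over all tested genes. The subject number of the labels names the mouse. Residuals of same-numbered libraries correlated by 0.0845 to 0.206. Libraries of different mice were not compared in this way, so these values do not test the pairing. No replicate pair looked like a repeat of the same library, since the smallest chi-square per degree of freedom was 45.2. The fit was also run on simulated counts that held no mouse effect, so that run cannot speak to the mouse block. Alternatives were DESeq2 1.42.0 with the mouse block, ComBat-seq (sva 3.50.0) then DESeq2, DESeq2 size factors in edgeR, no filter, no block, the compared groups only, the study's fold limit, each mouse left out, and, chosen after seeing the data, the 4n-whole library of mouse 2 left out.

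Positions and transcript lengths were from GENCODE M39, and start site sequences from RefSeq (GRCm38.p6), which held 7 of the 9 genes. The named genes were the 9, the 5 genes nearest in pattern to Bcat2 and to Bckdha, and 4 landmarks of the lobule. From each pathway list, up to 3 genes with the smallest p in 4n-whole against 2n-whole were added. The gene of each list with the smallest p in 4n-top against 4n-bottom was added as well. The genes and lists were chosen with earlier results of these data known. A further pathway gene is not reported here.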

Additional observations from a re-analysis of the deposited data

Results flagged for a closer look

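Of 27 sets of 4 libraries, 1 for each gene in each group of 4, 3 held a library far from the others by Dixon's test, where chance gives about 1 in 20. The 2n-whole library of mouse 3 was at 101 CPM for Dld, with the next library at 139 CPM, and at 145 CPM for Mmut, with the next at 168 CPM. The 4n-bottom library of mouse 4 was at 137 CPM for Ppm1k, with the next at 94.8 CPM, and Ppm1k was also highest in mouse 4 in the other 3 groups.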

How the results depend on the processing

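The count of the 9 genes called between 4n-whole and 2n-whole was 2. It was 0 with no replicate block, 0 with only the compared groups in the fit, 0 without the 4n-whole library of mouse 2, 1 with the study's fold limit, and 0 to 3 where a mouse was left out, the 3 without mouse 3, where Dld also passed. It was 3 with ComBat-seq then DESeq2 and 2 with the other alternatives. No alternative gave a call among the 9 in the other 3 comparisons. The count of further pathway genes was 0 in this comparison. It was 1 with no filter on low counts, 3 with DESeq2 and the replicate block, 5 with ComBat-seq then DESeq2, 1 without the 4n-whole library of mouse 2 and 0 to 1 where a mouse was left out. For 4n-top against 2n-whole it was 0, but 1 with ComBat-seq then DESeq2. The cause was not tested, apart from the fewer samples of the fits that leave libraries out.

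Values that turned direction were not called. Between 4n-whole and 2n-whole, Bckdha was 0.064 and Bckdhb 0.069 on the log2 scale without the 4n-whole library of mouse 2. Over the fits that leave out a mouse or that library, Bckdha ran from -0.16 to 0.064, Bckdhb from -0.098 to 0.080 and Ppm1k from -0.016 to 0.064. In the same comparison Mccc2 was 0.0025 with no replicate block and 0.0089 with no filter on low counts, and ran from -0.092 to 0.055 over those fits. Between 4n-top and 4n-bottom with no replicate block, Bcat2 was 0.028, Dld -0.064 and Bckdk -0.0084. Bcat2 was 0.016 with the compared groups only, and without the 4n-whole library of mouse 2 Bcat2 was 0.0087 and Dld -0.0014. Over the same fits Bcat2 ran from -0.13 to 0.13, Dld from -0.052 to 0.056, Bckdk from -0.071 to 0.35 and Mmut from -0.097 to 0.064. Between 4n-bottom and 2n-whole, Ppm1k was -0.019 with DESeq2, -0.013 with ComBat-seq, -0.020 with DESeq2 size factors and -0.0060 with the compared groups only. Over those fits Ppm1k ran from -0.041 to 0.020, Bckdha from -0.11 to 0.012 and Bckdk from -0.31 to 0.056. Between 4n-top and 2n-whole, Bckdhb was -0.023 with DESeq2, -0.021 with ComBat-seq, -0.023 with DESeq2 size factors, -0.031 with the compared groups only and -0.0078 without the 4n-whole library of mouse 2. Bckdk was 0.031 with the compared groups only. Here the fits with libraries left out ran from -0.087 to 0.047 for Bckdhb and from -0.13 to 0.043 for Bckdk. The mouse block changed the calls of Bcat2, Mmut, Pdk4, Mlxipl and Ppargc1a between 4n-whole and 2n-whole and no other call among the 9 genes and the named genes of the pathway lists. Without it the 3 landmark calls in that comparison, the 5 calls among the genes nearest in pattern and the landmark calls in the other comparisons (1 to 2 in each) were also lost. The 5 genes nearest in pattern had been picked for a pattern like that of Bcat2. Over all tested genes the calls in that comparison were 513 higher and 444 lower, so 53.6% were higher. There were 40 calls in all without the block and 1694 with DESeq2 and the block, of which 47.0% were higher. On all genes with counts there were 2430 calls with ComBat-seq then DESeq2 and 5411 with DESeq2 and the block, with 31.2% of the 5411 higher. Among the 9 genes depth limits Bckdk most, with 99 to 366 counts in a library.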
